A study of Mus musculus with 62 samples.

Results

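Haemoglobin and red cell genes were followed in the prefrontal cortex (PFC), striatum and liver of female mice by RNA sequencing of bulk tissue. The mice were of the inbred strain C57BL/6. The 5 genes listed are Hba-a1, Hba-a2, Hbb-bs, Hbb-bt and Alas2, and they were chosen by their lower levels in PFC at 6 mg/kg than in vehicle. Their PFC difference from vehicle is therefore given as a description, with no test. Of the 5 genes, 3 were counted in all 3 tissues (Hba-a1, Hbb-bt and Alas2), out of 18821 genes counted in any tissue; Hba-a2 and Hbb-bs were not analysed here. The beta globin gene Hbb-b1, which is not on the list, was added after its values were seen, because it carried more beta globin counts than Hbb-bt in most libraries.

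The mice swallowed the MARBLES mixture of polychlorinated biphenyls (PCBs, persistent industrial chemicals) at 0.1, 1 or 6 mg/kg, or vehicle alone, which is the 0 mg/kg group. The numbers of libraries from vehicle up to the highest dose were 4, 5, 6 and 6 in PFC and in striatum, and 4, 4, 6 and 6 in liver. Each sample title carries a number that recurs across tissues within a dose and is called the animal number here, although the labels do not say in words that it marks 1 mouse; age, dosing schedule and whether tissues were perfused free of blood are not given in the sources used here. Every brain library comes from a tissue punch, and the labels name no separate cultures or litters, so p-values measure the spread between these libraries only.

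Adult haemoglobin carries oxygen as a tetramer of alpha and beta chains, each holding a haem group. Red cell precursors make the chains from the alpha globin genes (Hba-a1 and Hba-a2) and the beta globin genes (Hbb-bs and Hbb-bt in C57BL/6 mice), and begin haem synthesis with the erythroid 5-aminolevulinate synthase encoded by Alas2. Circulating reticulocytes still hold these transcripts, so blood left in a dissected tissue contributes them, and low globin expression by other cells, neurons among them, has also been described. In bulk samples, fewer cells of a type and less RNA per cell cannot be told apart.

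On the GRCm38 assembly Hba-a1 lies at chr11:32283672-32284486 and its near-copy Hba-a2 at chr11:32296492-32297310. Hbb-bt lies at chr7:103812524-103813923, beside Hbb-bs at chr7:103826523-103827928, and Alas2 lies on the X chromosome at chrX:150547417-150570622. The GENCODE transcripts of Hba-a1 and Hba-a2 differ at 1 of 538 aligned bases (99.8% identical), so reads of the copies can be shared and the Hba-a1 values are uncertain as a measure of that copy alone. Hbb-bs and Hbb-bt transcripts match at 580 of 626 aligned bases (92.7%). Hbb-b1 is the adult beta gene of the other common mouse haplotype, and how reads of the C57BL/6 beta genes were divided between Hbb-bt and Hbb-b1 is not given in the sources used here.

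The promoters of the 3 measured genes are shown because globin genes and Alas2 are textbook targets of the same erythroid factors. A link between their motifs and the levels measured here was not tested. Each sequence is the RefSeq promoter of GRCm38.p6 over the 120 bases before the annotated start, read 5′ to 3′ on the gene's strand. Capitals mark matches, on either strand, to 4 motifs: CACCC, bound by Krüppel-like factors such as Klf1; the CCAAT box; ATATAA, which is a form of the TATA box; and GATAA, the core bound by GATA factors.
Hba-a1, chr11:32283552-32283671, plus strand: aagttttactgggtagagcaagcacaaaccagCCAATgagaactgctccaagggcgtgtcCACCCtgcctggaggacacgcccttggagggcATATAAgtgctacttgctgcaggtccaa
Hbb-bt, chr7:103813924-103814043, minus strand: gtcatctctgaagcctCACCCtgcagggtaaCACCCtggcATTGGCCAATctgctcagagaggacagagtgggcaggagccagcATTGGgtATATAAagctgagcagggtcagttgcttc
Alas2, chrX:150547297-150547416, plus strand: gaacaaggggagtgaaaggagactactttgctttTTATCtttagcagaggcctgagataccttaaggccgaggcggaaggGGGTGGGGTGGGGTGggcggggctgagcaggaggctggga

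Both globin promoters held ATATAA at nearly the same place, from 28 to 23 bases before the start in Hba-a1 and from 29 to 24 in Hbb-bt. Hba-a1 had 1 CCAAT and Hbb-bt had 3 on both strands, of which 2 adjoin. Over the 250 bases before the start, CACCC matched 2 times in Hba-a1, 3 times in Hbb-bt and 3 times in Alas2, where the matches lie on the opposite strand between 40 and 26 bases before the start. GATAA matched once in each window, on the opposite strand 86 to 82 bases before the start in Alas2, and at 182 to 178 bases in Hba-a1 and 204 to 200 in Hbb-bt, outside the printed bases. The Alas2 window held neither the CCAAT box nor ATATAA. Among 32851 mouse promoters of the same length, 52% held CACCC, 33.8% held CCAAT, 22.6% held GATAA and 9.1% held ATATAA. The Hba-a1 and Hba-a2 windows matched at all 247 aligned bases, and the Hbb-bs and Hbb-bt windows at 73.3% of aligned bases.

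Levels are given in CPM, which are read counts divided by the library's effective size and brought to one common total within each tissue. Total counts ran from 8722232 to 12135200 per PFC library, 8283032 to 12019651 per striatum library and 7381179 to 10203247 per liver library. The labels used here give no batch. The tissue labels were checked against marker lists. Summed liver markers reached 82900 to 185000 CPM in every liver library, and all 6 cortical markers were lower and all 7 striatal markers higher in striatum than in PFC. Striatal markers were nevertheless present in PFC, at 3020 CPM in animal 8 and 951 to 2890 CPM in the other 20 libraries. Cortical markers reached 1180 CPM in the striatum library of animal 8 (others 111 to 1740 CPM), and the choroid plexus product Ttr ranged from 1.67 to 4100 CPM across striatum libraries.

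Hba-a1, an alpha chain gene, was the most abundant of the 3 genes per transcript length. In PFC its median was 90.9 CPM per kilobase, against 22.3 for Hbb-bt and 0.307 for Alas2. The same order held in striatum (medians of 133, 26.8 and 0.484 CPM per kilobase) and in liver (110, 17.1 and 4.28). These are orders of level within a tissue, without a test between genes. They leave out Hbb-b1, whose PFC median was 25.8 CPM against 15.7 CPM for Hbb-bt, and Hba-a1 may hold reads of Hba-a2. The ratio of Hba-a1 counts to those of both beta genes had a PFC median of 1.53. Together Hba-a1, Hbb-bt and Hbb-b1 took 0.00162% to 0.0725% of a PFC library's counts, 0.00385% to 0.0649% in striatum and 0.00453% to 0.355% in liver.

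**Figure D1:**
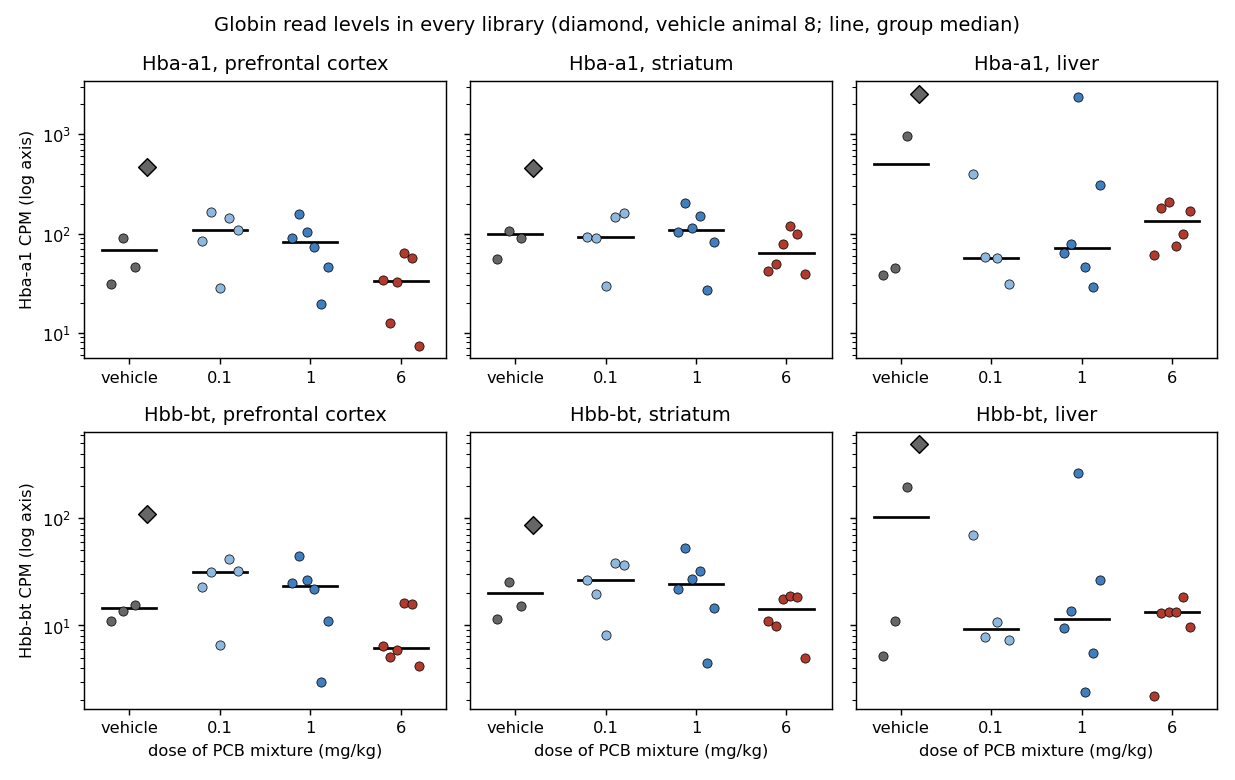
Hba-a1 (top) and Hbb-bt (bottom) in CPM on a log axis, by tissue and dose in mg/kg. Each point is 1 library, lines are group medians and diamonds mark vehicle animal 8, which is the highest library in all 6 panels (471, 455 and 2560 CPM of Hba-a1 in PFC, striatum and liver).

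In PFC, the contrast that chose the genes, Hba-a1 stood at 471, 45.8, 90.0 and 30.7 CPM in the vehicle libraries of animals 8, 7, 4 and 3. At 6 mg/kg the lowest, median and highest of 6 libraries were 7.45, 33.3 and 63.5 CPM. The groups overlapped, and the vehicle library of animal 8 lay 5.23 times above the next. At 0.1 mg/kg the 5 libraries stood at 83.3, 163, 28.2, 144 and 109 CPM, and at 1 mg/kg the lowest, median and highest were 19.6, 81.7 and 158 CPM. The fitted difference at 6 mg/kg from vehicle was -2.20 ± 0.746 (log2 fold change, SE), a level 4.6-fold lower, and without animal 8 it was -0.68 ± 0.654, or 1.6-fold lower.

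Hbb-bt, a beta chain gene, was also highest in vehicle animal 8. Its PFC vehicle levels were 109, 15.4, 13.7 and 11.1 CPM in animals 8, 7, 4 and 3, and at 6 mg/kg they ran from 4.2 through a median of 6.21 to 16.2 CPM. Here too the groups overlapped, with 2 of the 6 libraries at 6 mg/kg (16.2 and 15.7 CPM) above 3 of the 4 vehicle libraries. The 0.1 mg/kg libraries stood at 22.9, 31.8, 6.57, 41.7 and 32.3 CPM, and the 1 mg/kg libraries had a lowest, median and highest of 2.95, 23.4 and 44.0 CPM. The fitted difference at 6 mg/kg was -2.04 ± 0.72 with all vehicle libraries and -0.57 ± 0.625 without animal 8. Hbb-b1 gave -2.0 ± 0.657 and -0.76 ± 0.571.

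Alas2, which starts haem synthesis in red cell precursors, was near the limit of counting in PFC. Its vehicle libraries held 28, 6, 19 and 3 counts (3.19, 0.648, 2.0 and 0.259 CPM in animals 8, 7, 4 and 3). At 6 mg/kg the 6 libraries held 0 to 6 counts, with a median of 0.318 CPM, and the count of 0 in animal 54 allows up to 0.337 CPM by counting error alone. The groups overlapped, since the vehicle library of animal 3 lay under the median at 6 mg/kg. The fitted difference was -2.13 ± 0.654, and -1.48 ± 0.706 without animal 8, so it shrank less than that of the globin genes.

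The lower PFC doses share the vehicle libraries with that contrast and are also given without a test. Hba-a1 lay -0.96 from vehicle at 1 mg/kg on the log2 scale, and -0.59 from it at the 0.1 mg/kg dose. Without animal 8 these values were 0.57 and 0.93. Hbb-bt went from -0.75 and -0.46 to 0.72 and 1.01. Both globin genes thus lay on the other side of vehicle once that library was left out. Alas2 went from -0.54 to 0.11 at 1 mg/kg and from -0.98 to -0.33 at 0.1 mg/kg. Setting 1 against 0.1 mg/kg uses no library of the choosing contrast, and none of the 3 genes passed an adjusted p of 0.05 there, with edgeR calling 0% of 14838 genes (782 had an unadjusted p under 0.05). The log2 differences were -0.36 ± 0.693 for Hba-a1, -0.29 ± 0.656 for Hbb-bt and 0.44 ± 0.576 for Alas2 (edgeR adjusted p of 1 for each).

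**Figure D2:**
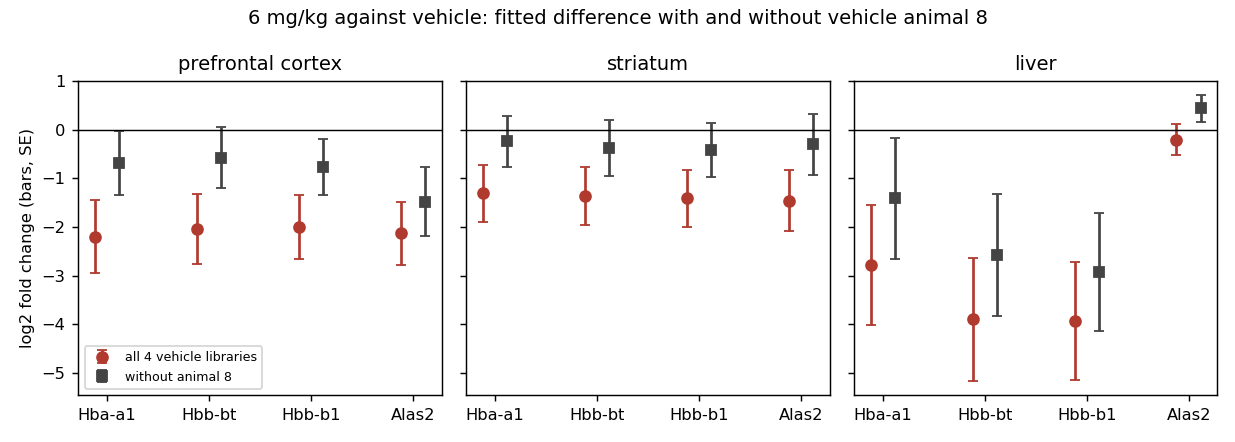
Fitted log2 fold change at 6 mg/kg against vehicle with its SE, by gene and tissue, with all 4 vehicle libraries (circles) and without animal 8 (squares). Every value but that of Alas2 in liver is under 0 in both fits, and the globin values in PFC move from about -2.20 to -2.0 up to -0.76 to -0.57 when animal 8 is left out.

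The striatum was not used to choose the genes, although its libraries carry the same animal numbers. Globin levels of the 2 brain regions moved together by animal number, so the striatum tests against vehicle are not independent of that choice. Hba-a1 stood at 455, 89.9, 106 and 55.9 CPM in the vehicle libraries of animals 8, 7, 4 and 3. At 6 mg/kg the lowest, median and highest were 38.8, 63.8 and 119 CPM, so that the groups overlapped and 1 library at 6 mg/kg exceeded 3 of the 4 vehicle libraries. The 0.1 mg/kg libraries stood at 92.7, 89.9, 29.8, 148 and 161 CPM, and the 1 mg/kg libraries ran from 26.7 through 109 to 201 CPM. The difference at 6 mg/kg from vehicle was -1.31 ± 0.58 (log2, SE), 2.48-fold lower, with an unadjusted p of 0.0362 and an edgeR adjusted p of 0.291. Without animal 8 it was -0.24 ± 0.531.

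Hbb-bt repeated this in striatum, at 85.7, 15.2, 25.2 and 11.6 CPM in vehicle animals 8, 7, 4 and 3 and between 4.96 and 18.8 CPM (median 14.3) at 6 mg/kg. The groups overlapped. Its difference was -1.36 ± 0.604 (edgeR adjusted p of 0.292), and -0.37 ± 0.571 without animal 8. Alas2 had 45, 3, 13 and 7 counts in the same vehicle libraries (4.48, 0.296, 1.25 and 0.668 CPM) and 0 to 9 counts at 6 mg/kg (median 0.68 CPM). The count of 0, in animal 58, allows up to 0.354 CPM. Its difference was -1.46 ± 0.628 (edgeR adjusted p of 0.274), and -0.30 ± 0.633 without animal 8. Hbb-b1 gave -1.41 ± 0.593 and, without animal 8, -0.42 ± 0.56.

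Markers of neighbouring tissue moved in the same striatum comparison. All 6 cortical markers lay lower at 6 mg/kg than in vehicle (median log2 difference of -1.15), with sums of 126 to 1180 CPM in vehicle and 111 to 488 CPM at 6 mg/kg. All 8 choroid plexus markers lay higher (median of 1.29), with sums of 10.1 to 69.2 and 6.21 to 191 CPM. None of these 14 genes passed the edgeR test, where 0% of all genes did. Both sets of ranges overlap, and the part of these markers in the striatal globin differences was not tested. At 1 mg/kg the medians were 0.44 for the cortical and 1.66 for the choroid plexus markers, and at 0.1 mg/kg -1.04 and 0.04.

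None of the 3 genes passed in striatum at any dose. The share of all genes called by edgeR was 0% of 15118 in each of the 3 comparisons, while 2377, 1113 and 383 genes had an unadjusted p under 0.05 at 6, 1 and 0.1 mg/kg. DESeq2 called none of the 3 genes either, although it gave Alas2 no adjusted p at 6 and 1 mg/kg, and it called 0.249%, 0.047% and 0.00661% of genes at 6, 1 and 0.1 mg/kg. At 1 mg/kg the log2 differences from vehicle were -0.65 for Hba-a1, -0.43 for Hbb-bt and -0.49 for Alas2, and at 0.1 mg/kg they were -0.76, -0.41 and -0.48. Without animal 8 each of these 6 values was above 0, from 0.31 to 0.68. Between 1 and 0.1 mg/kg the differences were 0.11 ± 0.551 for Hba-a1, -0.02 ± 0.563 for Hbb-bt and -0.02 ± 0.563 for Alas2, with edgeR calling 0.00661% of genes and none of the 3.

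Over all doses the globin genes spanned a wider range in liver than in either brain region, although at 6 mg/kg Hba-a1 ranged 3.37-fold in liver and 8.53-fold in PFC. Hba-a1 stood at 2560, 969, 44.6 and 38.5 CPM in vehicle animals 8, 7, 4 and 3, so that the vehicle group held a pair of high and a pair of low libraries. At 0.1 mg/kg animal 23 reached 394 CPM and the other 3 libraries 30.8 to 57.6 CPM. At 1 mg/kg animal 45 reached 2360 CPM, against a group median of 71.1 and a lowest of 29.1 CPM. At 6 mg/kg the lowest, median and highest were 61.3, 134 and 207 CPM. All 6 libraries at 6 mg/kg lay above the 2 low vehicle libraries and under the 2 high ones. The difference at 6 mg/kg was -2.78 ± 1.23 (log2, SE), 6.84-fold lower by fitted means, with an edgeR adjusted p of 0.176, and -1.41 ± 1.24 without animal 8.

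Hbb-bt had the largest fitted liver difference of the 3 genes. Its vehicle libraries stood at 489, 195, 10.9 and 5.22 CPM in animals 8, 7, 4 and 3, and the 6 mg/kg libraries at a lowest of 2.19, a median of 13.2 and a highest of 18.6 CPM. The 6 mg/kg libraries lay far under the 2 high vehicle libraries, and 4 of the 6 lay above both low ones. The difference was -3.90 ± 1.26, 14.9-fold lower, with an unadjusted p of 0.00628 and an edgeR adjusted p of 0.0868. Under DESeq2 the adjusted p was 0.0183, which passes, and DESeq2 called 9.72% of the 11708 genes that it gave an adjusted p. Without animal 8 the difference was -2.58 ± 1.25 (edgeR adjusted p of 0.231). Hbb-b1 gave -3.93 ± 1.21 (edgeR adjusted p of 0.0783, DESeq2 adjusted p of 0.0128), and -2.92 ± 1.21 without animal 8.

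Alas2 in liver stayed in a narrow range beside the globin genes. It stood at 18.7, 8.97, 4.3 and 4.06 CPM in vehicle animals 8, 7, 4 and 3, at 5.93 to 9.57 CPM at 0.1 mg/kg, at 7.16 to 14.8 CPM at 1 mg/kg and at 5.74 to 9.22 CPM at 6 mg/kg. Its highest liver library was 4.6 times its lowest, while Hba-a1 and Hbb-bt spanned 87.7-fold and 223-fold. The difference at 6 mg/kg was -0.20 ± 0.319 (edgeR adjusted p of 0.73), and 0.44 ± 0.27 without animal 8.

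No member passed the edgeR test in liver at 6 mg/kg, where 2.8% of 12968 genes did (363 genes, and 137 of 13258 without animal 8), nor at 1 mg/kg, where 0% did, nor at 0.1 mg/kg, where 0.0154% did. At 1 mg/kg the log2 differences from vehicle were -0.91 ± 1.2 for Hba-a1, -1.71 ± 1.18 for Hbb-bt and 0.24 ± 0.319 for Alas2. At 0.1 mg/kg they were -2.75 ± 1.42, -2.88 ± 1.41 and -0.21 ± 0.35. Leaving out animal 8 moved those of the globin genes to 0.45 and -0.40 at 1 mg/kg and to -1.38 and -1.56 at 0.1 mg/kg. For 1 against 0.1 mg/kg the values were 1.84 ± 1.3, 1.17 ± 1.26 and 0.45 ± 0.322, with 0.0154% of genes called and no member among them. Those of Hba-a1 and Hbb-bt became -0.37 and -1.07 when animal 45 was left out.

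The 6 mg/kg difference was then compared between liver and striatum in 1 fit. The liver difference minus the striatum difference was -1.48 ± 1.38 for Hba-a1, -2.55 ± 1.41 for Hbb-bt and 1.24 ± 0.691 for Alas2 on the log2 scale. The edgeR adjusted p-values were 0.616, 0.361 and 0.367, so no difference between the tissues was shown, and 0.13% of 14663 genes passed. With the animal number as a block the values for Hba-a1 and Hbb-bt were nearer 0, at -0.17 and -1.31 (edgeR adjusted p of 0.966 and 0.68).

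**Figure D3:**
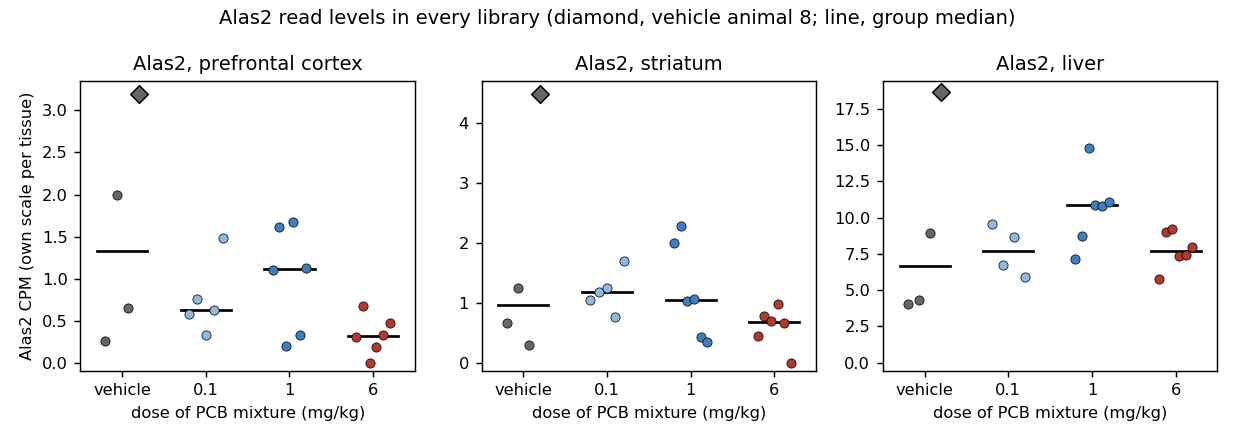
Alas2 in CPM on linear axes, each tissue on its own scale, by dose in mg/kg. Points are libraries, lines are group medians and diamonds mark vehicle animal 8, the highest library in each tissue (3.19, 4.48 and 18.7 CPM in PFC, striatum and liver).

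Between tissues, levels were compared over the 0.1 and 1 mg/kg groups, which leaves out the PFC libraries used to choose the genes. Alas2 was higher in liver than in striatum by 4.01 ± 0.322 on the log2 scale, 16.2-fold (edgeR adjusted p of 7.42e-15), and by 3.91 to 4.20 when any 1 animal was left out. With library totals alone in place of TMM it was 3.17, and the median of all genes moved from -0.09 to -0.94; Hba-a1 was then at 1.46 and kept its call, and Hbb-bt was at 0.70 and lost it. Hba-a1 was higher in liver by 2.33 ± 0.687, 5.01-fold (edgeR adjusted p of 0.00218). With the animal number as a block it was 1.13 and the call was lost (edgeR adjusted p of 0.106). It was 1.24 without animal 45 and 1.56 without animal 23, with edgeR adjusted p-values of 0.0488 and 0.0392. Hbb-bt was higher by 1.56 ± 0.671, 2.96-fold (edgeR adjusted p of 0.0296). That call was lost with the block (0.56, edgeR adjusted p of 0.409), without animal 45 (0.47, edgeR adjusted p of 0.455) and without animal 23 (0.84, edgeR adjusted p of 0.273). With 88% of genes called in this comparison, the 3 of 3 members called stand near the background, and with the block the count was 1, Alas2 (4.06).

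None of the 3 genes passed the test between striatum and PFC. The difference, striatum minus PFC, was 0.14 ± 0.45 for Hba-a1, 0.00 ± 0.438 for Hbb-bt and 0.36 ± 0.423 for Alas2 on the log2 scale, with edgeR adjusted p-values of 0.823, 0.995 and 0.521. Of all genes, 42.2% passed in this comparison.

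Globin levels in libraries with the same animal number moved together in the brain. After the dose group mean was removed, Pearson's r between PFC and striatum over 21 animal numbers was 0.928 for Hbb-bt, 0.897 for Hba-a1 and 0.384 for Alas2. These values include the PFC vehicle and 6 mg/kg libraries that chose the genes and are given as a description. The test was made over the 11 animals at 0.1 and 1 mg/kg, a choice added after the values were seen. There Hbb-bt had r = 0.961 (permutation p = 0.00057, adjusted 0.00171 over the 3 members) and Spearman's rho = 0.845 (permutation p = 0.00344, adjusted 0.0103). Hba-a1 had r = 0.907 (permutation p = 0.00239, adjusted 0.00359) and rho = 0.709 (permutation p = 0.028, adjusted 0.042). Leaving out animals 48 and 25, the farthest from the median in PFC, r over the other 9 was 0.822 for Hbb-bt and 0.563 for Hba-a1, so the relation of Hba-a1 leans on them. Alas2 had r = 0.404 (permutation p = 0.304, adjusted 0.304) and rho = 0.409 (permutation p = 0.264, adjusted 0.264), and r = 0.343 without its farthest animals, 45 and 48. Alas2 rested on only 0 to 28 counts per PFC library.

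**Figure D4:**
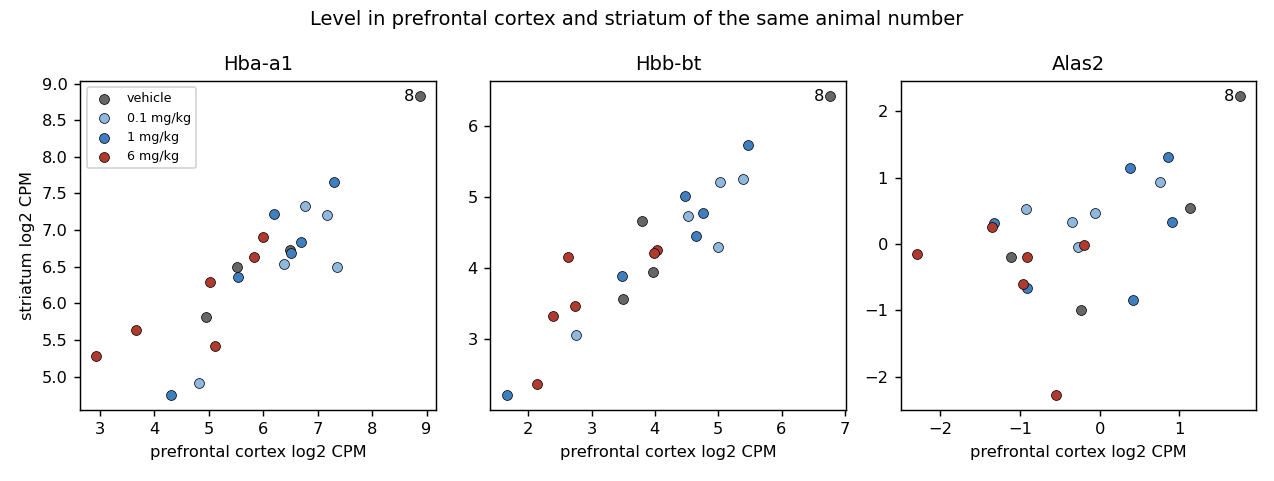
Log2 CPM of Hba-a1, Hbb-bt and Alas2 in PFC (horizontal) and striatum (vertical) of the same animal number, with colours for dose. The 21 points of the globin genes rise along a diagonal with animal 8 at the top, while those of Alas2 scatter more widely.

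No relation between liver and brain passed the test. Liver was paired with each brain region after the values were seen. Over 20 animal numbers, as a description, r between PFC and liver was 0.282 for Hba-a1, 0.436 for Hbb-bt and 0.119 for Alas2. Tested over the 10 animals at 0.1 and 1 mg/kg, r was 0.23 (permutation p = 0.56, adjusted 0.56), 0.229 (p = 0.559, adjusted 0.56) and -0.561 (p = 0.128, adjusted 0.384), with rho of 0.139, 0.333 and -0.503 (permutation p of 0.729, 0.386 and 0.177). Without the 2 farthest animals r was -0.202, -0.149 and -0.3. Between striatum and liver, over 20 animal numbers, r was 0.327 for Hba-a1 (permutation p = 0.287, adjusted 0.43), 0.351 for Hbb-bt (p = 0.226, adjusted 0.43) and 0.174 for Alas2 (p = 0.679, adjusted 0.679), with rho of 0.177, 0.229 and -0.113 (permutation p of 0.535, 0.41 and 0.693). Without the 2 farthest animals r was 0.026, 0.288 and -0.226.

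The ranks of single animals in each organ are given as a description. Animal 8 ranked first for Hba-a1, Hbb-bt and Alas2 in all 3 tissues. Animal 7 ranked 3 of 20 in liver for both globin genes, but 14 and 12 of 21 in PFC. Animal 45, at rank 2 in liver for all 3 genes, was at rank 6 in PFC for both globin genes. Animal 42 held ranks 3 and 2 in PFC for Hba-a1 and Hbb-bt and rank 2 in striatum for both, but ranks 10 and 7 in liver.

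The alpha to beta balance was examined after the values were seen, and is given without a test. The ratio of Hba-a1 counts to the sum of Hbb-bt and Hbb-b1 counts ran from 0.857 to 2.12 in PFC and from 1.38 to 3.29 in striatum. In liver it ran from 1.6 to 2.16 in vehicle, from 1.59 to 2.28 at 0.1 mg/kg, from 1.75 to 5.67 at 1 mg/kg and from 1.88 to 9.53 at 6 mg/kg, with medians of 1.84, 2.04, 2.68 and 4.84. Of the 6 liver libraries at 6 mg/kg, 5 exceeded every vehicle library, and the lowest lay within the vehicle range. In striatum the medians were 1.95, 1.5, 1.92 and 2.13 from vehicle to 6 mg/kg, and in PFC 1.45, 1.48, 1.58 and 1.48. The ratio of Hbb-bt to Hbb-b1 kept medians of 0.643 in PFC, 0.677 in striatum and 0.578 in liver. Alas2 counts per 1000 beta globin counts had medians of 15.7 in PFC, 17.7 in striatum and 230 in liver, where they reached 1360.

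**Figure D5:**
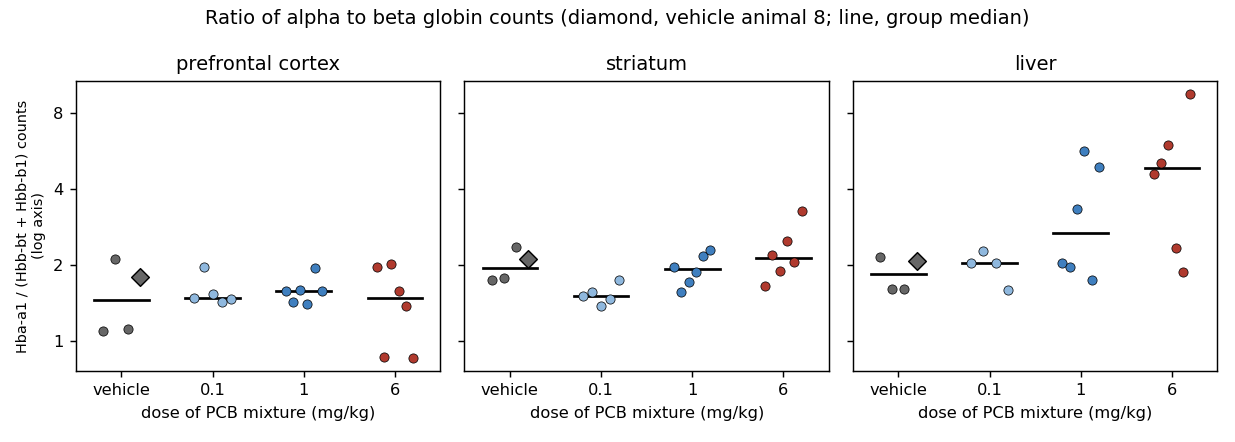
Hba-a1 counts divided by Hbb-bt plus Hbb-b1 counts in each library, on a log axis, by tissue and dose in mg/kg; lines are group medians and diamonds mark vehicle animal 8. Liver medians are 1.84, 2.04, 2.68 and 4.84 from vehicle to 6 mg/kg, while PFC medians stay between 1.45 and 1.58.

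By a fixed rule, the genes most alike to Hbb-bt were named from correlations of deviations from the dose group means over the libraries of a tissue, which share library and depth. Hbb-b1 came first in all 3 tissues, at r of 0.979 in PFC (21 libraries), 0.99 in striatum (21) and 0.97 in liver (20). Next were Sptlc1 (0.792), Maea (0.772), Nefl (0.767) and Morf4l1-ps1 (0.76) in PFC, Vgll3 (0.765), Col18a1 (0.726), Dpy19l1 (0.722) and Edn1 (0.67) in striatum, and Mkrn1 (0.866), C2 (0.815), 0610010K14Rik (0.808) and Gpt (0.807) in liver. No gene other than Hbb-b1 was among the 5 in more than 1 tissue. On the same measure Hba-a1 reached 0.925, 0.968 and 0.946 in PFC, striatum and liver, and Alas2 0.463, 0.729 and 0.792.

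Other red cell genes were described from a list of 27. It names the membrane skeleton (Sptb, Ank1, Dmtn, Add2, Epb41), the erythroid factors Klf1 and Gata1 and others. Of these, 13 were tested in PFC, 13 in striatum and 12 in liver. Several tested members are also made by brain cells: Dmtn averaged 470 CPM, Add2 343 and Sptb 236 CPM in PFC. The library of animal 8, which held the most globin, had a summed list level of 1690 CPM in PFC, within the 1480 to 1720 CPM of the other 20, and likewise in striatum (1610, others 1270 to 1730 CPM) and in liver (246, others 211 to 293 CPM). Erythroid factors were near 0 in PFC, with means of 0.0903 CPM for Klf1 and 0.16 CPM for Gata1.

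At 6 mg/kg against vehicle in striatum, 0 of the 13 passed by edgeR in either direction and 0 had an unadjusted p under 0.05, where 0% and 15.7% of all genes did, with a median of -0.17 on the log2 scale beside 0.01 over all genes. In liver, 1 of 12 rose and 0 fell, where 2.8% of all genes were called, with a median of -0.22 beside 0.02. At an unadjusted p under 0.05, 1 was higher and 2 were lower, against 24.2% of all genes. Bnip3l, a mitophagy receptor of maturing red cells, stood at -0.56 ± 0.164 (edgeR adjusted p of 0.0625). The gene that rose was Epb41, which encodes protein 4.1 and is expressed well beyond red cells, at 0.71 ± 0.169 (edgeR adjusted p of 0.0319). That call was lost without any of animals 3, 4, 7, 8, 52 or 58 (edgeR adjusted p of 0.0553 to 0.119, values of 0.58 to 0.78), and with only the groups compared in the fit (0.0873). In PFC, as a description, 8 of 13 lay above vehicle and 5 below, with a median of 0.03.

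The other genes of haem synthesis lay near their vehicle levels in PFC. In PFC at 6 mg/kg the 13 genes of the list, Alas2 not counted, had a median log2 difference of 0.04 and a range of -0.25 to 0.23. Alas1, the synthase of non-erythroid cells, differed by 0.04 and Fech, which inserts iron, by -0.03. Alas2 stood at -2.13, and at -1.48 ± 0.706 without animal 8, on 0 to 28 counts per PFC library. Since Alas2 was chosen by this contrast, its gap from the other genes is only a description. In striatum 0 of 13 passed by edgeR, 1 had an unadjusted p under 0.05 (15.7% of all genes did), and the median was 0.07. In liver 1 of 13 rose and 0 fell, where 2.8% of all genes were called, and at an unadjusted p under 0.05 5 were higher and 1 was lower (24.2% of all genes had such a p). It was Slc25a37, the mitochondrial iron importer mitoferrin-1, at 0.87 ± 0.195 (edgeR adjusted p of 0.025), a call lost without any of animals 3, 4, 8, 54 or 58 (edgeR adjusted p of 0.0508 to 0.108, values of 0.77 to 0.85) and with only the groups compared in the fit (0.0722). Alas1 in liver stood at 1.31 ± 0.439 (edgeR adjusted p of 0.0904) and Alad, the next enzyme, at 0.82 ± 0.273 (0.0875). In the other direction Tmem14c, a mitochondrial porphyrin transporter, stood at -0.85 ± 0.298 (edgeR adjusted p of 0.0987) and Fech at -0.37 ± 0.246 (0.36). Of 19 genes of haem breakdown and iron handling, 0 of 16 tested in striatum and 0 of 19 in liver passed by edgeR at 6 mg/kg, where 0 and 4 had an unadjusted p under 0.05, beside 15.7% and 24.2% of all genes. Trf, which encodes the iron carrier transferrin, stood at -0.67 ± 0.293 in liver (edgeR adjusted p of 0.164), and Ftl1, a ferritin light chain gene, at 0.00 ± 0.188 (0.994). The haptoglobin gene Hp in liver stood at 0.59 ± 0.281 (edgeR adjusted p of 0.202), and that of haemopexin, Hpx, at 0.05 ± 0.172 (0.89).

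Markers of other blood cells and of vessels were measured beside the globin genes. The 23 leukocyte and platelet markers summed to 4.3 to 8.43 CPM in PFC and 4.68 to 11.6 CPM in striatum, with 11 and 12 of the 23 counted at all, and to 29.4 to 70.5 CPM in liver. Animal 8 stood at 6.04, 4.98 and 42.2 CPM, within the range of the other libraries in each tissue. The 18 endothelial markers summed to 841 to 970 CPM in PFC vehicle and 852 to 1060 CPM at 6 mg/kg, with animal 8 at 970 CPM, and to 983 to 1060 and 1050 to 1210 CPM in striatum. The 11 mural cell markers ran from 224 to 259 CPM in PFC vehicle and from 241 to 279 CPM at 6 mg/kg. Animal 8 held the 224 CPM, and the other 20 PFC libraries held 201 to 293 CPM. In striatum the mural markers ran from 239 to 306 CPM in vehicle and from 243 to 303 CPM at 6 mg/kg. There animal 8 held the 306 CPM, above the 214 to 303 CPM of the other 20 libraries. Its striatum library had the highest level of the smooth muscle genes Acta2 (34.8 CPM), Myh11 (22.6 CPM) and Tagln (31.4 CPM), of Anpep (6.38 CPM) and of the endothelial gene Vwf (36.5 CPM), which were singled out after their values were seen. Other markers of the same lists were low in that library, with Rgs5 at 43.3 CPM, the lowest of the 21, Slco1a4 at 26.7 CPM (21 libraries from 25.8 CPM) and Higd1b at 0.897 CPM (from 0.826 CPM). Its endothelial sum of 1010 CPM lay within the 920 to 1210 CPM of the others. In the PFC library of animal 8, Acta2 (15.2 CPM), Myh11 (10.7), Tagln (10.4), Anpep (5.59) and Vwf (21.2) were not the highest of the 21. Flt1 (72.3 CPM) and Cspg4 (24.9 CPM) of the same lists were the highest there. The part of vessel markers in the globin levels of animal 8 was not tested. None of these lists had a gene past the edgeR threshold at 6 mg/kg in striatum or liver, where 2 and 10 of the leukocyte and platelet genes were tested (6 and 2 of the endothelial genes, 1 and 1 of the leukocyte and platelet genes and 0 and 1 of the mural genes had an unadjusted p under 0.05). All 18 endothelial genes were tested in striatum and 17 in liver, and the share of all genes at that p was 15.7% and 24.2%. The part of the amount of blood in each sample in the globin differences was not tested.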

How the data were processed

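The authors deposited whole-number read counts per gene, 1 table per tissue, with Entrez gene identifiers. FastQC, HISAT2 and mm10 are named in the submitters' processing notes, with no role or version; the counting tool and use of strand are not given in the sources used here. Columns were matched to samples by title. RefSeq symbols (GRCm38.p6) named 99.97% of PFC and 99.95% of striatum and liver identifiers. The protocol names poly(A) capture or ribosomal RNA removal without saying which.

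Counts were fitted per tissue in edgeR 4.0.16 (R 4.3.3): filterByExpr, TMM scaling, all dose groups in a single robust quasi-likelihood fit, Benjamini-Hochberg adjustment over all genes tested, threshold 0.05. Tissue comparisons used a joint fit of both tissues. CPM are TMM-scaled, with a prior count of 2 for log2 CPM. An exact 0 was given a limit of 3 counts. Correlations permuted striatum or liver values within dose groups (100000 draws, two-sided, Python 3.11.15). Those of PFC and striatum, planned over all doses, are tested over 0.1 and 1 mg/kg alone. Those of PFC and liver, which were not planned, are tested over the same doses. The fits were tested on simulated counts. Alternatives were DESeq2 1.42.0, median-ratio size factors, library totals, no filter, a mean of at least 10 counts, only the groups compared, the animal number as a block, and each animal left out.

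The members and lists were chosen with earlier results of these data known. All members are named in every tissue; of each list, at most 4 genes with the highest mean CPM and any that pass (1 of these is not reported here); and the 5 genes most alike to Hbb-bt, in place of Hbb-bs, which the rule had named. Klf1 and Gata1 were named outside the rule, after their values were seen.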

Additional observations from a re-analysis of the deposited data

Results flagged for a closer look

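Single libraries stood apart from the rest of their group by Dixon's criterion in 11 of 48 groups of libraries (4 genes, 3 tissues, 4 doses). Chance alone gives about 1 in 20, or 2.4, but the genes of a library are not independent, so the 11 come down to 4 libraries. The PFC vehicle and 6 mg/kg values chose the genes, so those of PFC vehicle are a description; without these PFC groups the count was 8 of 40, where chance gives about 2. Vehicle animal 8 was high in PFC for Hba-a1 (471 CPM), Hbb-bt (109 CPM) and Hbb-b1 (155 CPM), and in striatum for Hba-a1 (455 CPM) and Hbb-b1 (128 CPM). In liver, animal 23 at 0.1 mg/kg was high for Hba-a1 (394 CPM), Hbb-bt (69.4 CPM) and Hbb-b1 (123 CPM). Animal 45 at 1 mg/kg was high in liver for Hba-a1 (2360 CPM), Hbb-bt (264 CPM) and Hbb-b1 (445 CPM). Alas2 stood apart in no group, and the liver library of animal 8 did not stand apart because that of animal 7 was also high.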

How the results depend on the processing

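Of the counts of members passing, the liver 6 mg/kg count went from 0 to 1 with DESeq2 (Hbb-bt), which called 1138 genes there where edgeR called 363, and the liver against striatum count from 3 to 1 with the animal number as a replicate block. The other counts kept their side of the threshold under every alternative run. The correlations of PFC and striatum over the 0.1 and 1 mg/kg animals were recomputed with library totals alone, where r was 0.961 for Hbb-bt, 0.91 for Hba-a1 and 0.385 for Alas2 (permutation p of 0.00054, 0.00217 and 0.34), and without the 2 farthest animals, with no test. In the block fit Alas2 kept its call (4.06), while Hba-a1 (1.13, edgeR adjusted p of 0.106) and Hbb-bt (0.56, adjusted p of 0.409) lost theirs. In the pairing check across genes, 12 of 21 PFC and striatum pairs of the same number correlated above 0.1 (mean 0.113, and -0.0233 for other pairs of a dose) and 12 matched best with their own number, a hint of pairing from the data. For striatum and liver the mean was 0.0052, with 2 of 20 pairs above 0.1 and 5 best matches. Not every pair passed 0.1 and the labels do not say that a number marks 1 mouse, so the fits were left without the block. Among the members the block changed no other call. Hbb-bt in liver against striatum also lost its call with library totals alone (0.70) and with only the groups compared (edgeR adjusted p of 0.0505).

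Directions that turned belonged to differences that passed no test. Leaving out 1 animal at a time, the log2 differences in striatum at 1 mg/kg ranged from -0.94 to 0.42 for Hba-a1, -0.78 to 0.56 for Hbb-bt, -0.84 to 0.66 for Alas2 and -0.81 to 0.51 for Hbb-b1. At 0.1 mg/kg they ranged from -1.05 to 0.31, -0.69 to 0.58, -0.82 to 0.68 and -0.59 to 0.66, and for 1 against 0.1 mg/kg from -0.14 to 0.32, -0.37 to 0.20, -0.33 to 0.18 and -0.49 to 0.06. With library totals alone, Hbb-bt and Alas2 in that last comparison were each at 0.01. In liver the ranges were -0.45 to 0.44 for Alas2 at 6 mg/kg, -3.11 to 0.45 for Hba-a1 and -0.01 to 0.87 for Alas2 at 1 mg/kg, and -0.45 to 0.42 for Alas2 at 0.1 mg/kg. For liver 1 against 0.1 mg/kg they were -0.37 to 3.31 for Hba-a1, -1.07 to 2.61 for Hbb-bt and -1.06 to 2.55 for Hbb-b1, and in striatum against PFC -0.05 to 0.06 for Hbb-bt, whose difference was 0.00, and -0.02 to 0.10 for Hbb-b1. All turns against vehicle came without animal 8 except that of liver Alas2 at 1 mg/kg, which came without animal 3; the cause was not tested. Alas2 in brain, at 0 to 45 counts per library, is limited by depth. Every comparison against vehicle rests on 4 vehicle libraries, that of animal 8 among them, with the spread estimated over all dose groups of the tissue.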

Other observations

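Of 9 other globin genes listed, 2 were tested between the brain regions over the 0.1 and 1 mg/kg groups, and both were higher in striatum than in PFC, in a comparison where 42.2% of genes passed. Neuroglobin (Ngb), a globin of neurons, averaged 26.3 CPM in striatum and 3.86 CPM in PFC, and was higher in striatum by 2.31 ± 0.248 on the log2 scale (edgeR adjusted p of 9.74e-10). Cytoglobin (Cygb), found in fibroblast-like and other cells, was higher by 0.23 ± 0.0754 (edgeR adjusted p of 0.011). The levels are set across tables scaled separately, and the tests come from the joint fit. At 6 mg/kg in striatum neither passed, with Ngb at 0.77 ± 0.412 and Cygb at 0.22 ± 0.116 (edgeR adjusted p of 0.367 and 0.348).

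Liver carried more transcript of haem synthesis than striatum, with all 13 listed genes higher by edgeR in a comparison where 88% of genes passed. Alad was higher by 4.87 ± 0.17 and Alas1 by 4.03 ± 0.234 (edgeR adjusted p of 7.34e-27 and 2.5e-19), beside 4.01 for Alas2. The erythroid factor Klf1, singled out after its values were seen, was also higher in liver, at 6.58 ± 0.348 (edgeR adjusted p of 7.94e-21). It had a mean of 4.31 CPM in liver and 0.121 CPM in striatum, and 2.98 CPM in the high-globin liver library of animal 8. Klf1 was the highest of its red cell list, which went mostly the other way. Of the 13 tested, 4 passed as higher in liver and 7 as lower, with a median of -1.39 beside -0.09 over all genes. The summed list level of animal 8 in liver, 246 CPM, lay within the 211 to 293 CPM of the others.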
